A study of Caenorhabditis elegans with 2 samples.

Results

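The 9 genes described here encode the main housekeeping and organelle chaperones of Caenorhabditis elegans, their stress regulator and the unfoldase CDC-48: hsp-1, hsp-90, hsp-3, hsp-4, hsp-6, hsp-60, hsf-1, cdc-48.1 and cdc-48.2. They are 9 of 19973 nuclear protein-coding genes. The genes were chosen by name, with their signals in these lists already known, so the levels given for them are a description and no test was made of them. The data are ChIP-seq regions of DAF-12, a steroid-regulated nuclear hormone receptor that acts in dauer formation and developmental timing, fused to eGFP, in strain OP222, whose genotype is unc-119(ed3) III; wgIs222. There was 1 group of 2 samples, biological replicates 1 and 2, each from whole worms of both sexes pooled at the L3 larval stage, with no age in hours given. Both samples carry the unc-119 mutation and the transgene insertion, and no sample without the tagged protein is in the group. Because whole animals were used, strong binding in a few cells and weak binding in many cannot be told apart.

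Chaperones hold or refold other proteins. HSP70 and HSP90 proteins do so with ATP in the cytosol, in the endoplasmic reticulum (ER) and in mitochondria, and HSP60 forms a closed folding chamber in mitochondria. CDC-48, called p97 or VCP in mammals, is an AAA ATPase that pulls ubiquitin-marked proteins out of membranes and complexes and hands them to the proteasome. The heat shock factor HSF-1 binds repeats of GAA and TTC units called heat shock elements, and the ER stress factor XBP-1 is known to bind sites with the core TGACGTG.

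Of the 9 genes, 4 had a peak on the authors' list of 150 that passed the irreproducible discovery rate (IDR) threshold, counting a summit inside the gene or within 2 kb of an annotated start: cdc-48.1, hsp-1, hsp-90 and hsp-60. Of all protein-coding genes, 0.881% had such a peak. As this signal was part of how the 9 genes were chosen, nothing is read from the difference. The 150 IDR peaks were also the 150 highest regions of the pooled list. Of them, 142 had a region of each replicate within 100 bp of the summit. A further gene, hsp-3, had a region below the threshold. One of the 300 highest pooled regions was thus at 5 of the 9 genes, and at 1.72% of all genes. The other members, cdc-48.2, hsp-4, hsp-6 and hsf-1, had no region at that height.

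The sequences at the 4 IDR summits, with 100 bases to either side, are shown because they are the DNA that the following results refer to. Each is 201 bases of the WBcel235 (ce11) genome, read 5' to 3' along the strand of the gene, with the summit at base 101. Capitals mark every match to the 6 patterns searched on both strands. These were AGTGTG and then AGTGCA, hexamers known for DAF-12, the GA repeat GAGAG, the heat shock patterns GAANNTTC and also TTCNNGAA, where N is any base, and the XBP-1 core TGACGTG.
cdc-48.1, II:10563457-10563657, minus strand: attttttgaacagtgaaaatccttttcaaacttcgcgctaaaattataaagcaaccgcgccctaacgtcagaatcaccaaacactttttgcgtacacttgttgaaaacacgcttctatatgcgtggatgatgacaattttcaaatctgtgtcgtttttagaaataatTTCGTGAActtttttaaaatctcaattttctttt
hsp-1, IV:17278461-17278661, plus strand: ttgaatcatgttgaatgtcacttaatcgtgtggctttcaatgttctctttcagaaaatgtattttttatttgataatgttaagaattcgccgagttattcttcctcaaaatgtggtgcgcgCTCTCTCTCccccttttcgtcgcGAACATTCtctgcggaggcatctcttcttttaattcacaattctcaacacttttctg
hsp-90, V:14685678-14685878, plus strand: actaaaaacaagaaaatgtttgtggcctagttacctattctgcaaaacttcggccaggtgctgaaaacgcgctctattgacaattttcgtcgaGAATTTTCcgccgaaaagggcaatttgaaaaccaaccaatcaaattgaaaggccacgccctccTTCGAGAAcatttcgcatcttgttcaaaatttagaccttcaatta
hsp-60, III:1619001-1619201, plus strand: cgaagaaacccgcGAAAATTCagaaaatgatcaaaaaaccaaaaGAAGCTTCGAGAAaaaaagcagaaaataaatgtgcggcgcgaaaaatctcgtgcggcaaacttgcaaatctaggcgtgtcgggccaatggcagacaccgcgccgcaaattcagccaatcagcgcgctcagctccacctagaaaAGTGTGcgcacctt

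The highest signal of the 9 genes was at cdc-48.1, the first of a pair of worm genes for CDC-48. The signal at its summit, II:10563557, was 65.3 in replicate 1 and 56.1 in replicate 2, which ranked 7 and 5 among the 30000 regions of those lists. In the pooled list the signal was 123.6 at rank 6. Both replicates thus placed it near the top, with summits 35 bp apart and a signal 1.17-fold higher in replicate 1. The summit lay 150 bp upstream of the single annotated start of cdc-48.1, in intergenic sequence. The region stood alone, since the next listed region was 3655 bp away in replicate 1, 3991 bp away in replicate 2 and 3970 bp away in the pooled list. Starts of a small nucleolar RNA gene, C06A1.9, at 493 bp, and of C06A1.6 and C06A1.7, at 1121 and 1334 bp, were also within 2 kb, and that of cdc-48.1 was the nearest of these.

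The paralog cdc-48.2 (II:8138496-8141230) had nothing comparable. Its best regions had a signal of 9.11 in replicate 1, at rank 5170 and 1533 bp upstream of the start, and 8.14 in replicate 2, at rank 13398 and 728 bp inside the gene. The pooled region, 829 bp inside the gene, had a signal of 12.104 at rank 14553. The replicate 2 and pooled values lay close to the medians of their lists, 7.84 and 11.98, and the replicate 1 value was above the median of its list, 6.62. The proteins of 809 and 810 residues were 88.1% identical over 817 aligned positions.

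Both cytosolic chaperone genes had a peak. At hsp-1, the constitutive cytosolic HSP70, the summit at IV:17278561 had a signal of 28.2 in replicate 1 (rank 53), 35.3 in replicate 2 (rank 28) and 58.2 in the pooled list (rank 44). This pooled summit lay 398 bp upstream of the single hsp-1 start, in intergenic sequence. It was 59 bp beyond the end of a non-coding RNA gene, F26D10.23, whose start was nearer, at 148 bp. The replicate summits were 61 bp apart, and that of replicate 1, at IV:17278481, lay inside F26D10.23, which ends at IV:17278502. Starts of clec-196, a C-type lectin gene, and of the small nucleolar RNA gene F26D10.24 were at 1024 and 1485 bp. At hsp-90, the cytosolic HSP90, also known as daf-21 for its dauer phenotype, the summit at V:14685778 had a signal of 28.5 in replicate 1 (rank 50), 22.5 in replicate 2 (rank 98) and 50.1 in the pooled list (rank 58). It was in an intron of the longer hsp-90 transcript, 382 bp upstream of the inner start at V:14686160 and 860 bp downstream of the outer one at V:14684918. The nearest start, at 293 bp, was that of C47E8.4 on the other strand, a FAM50 homolog.

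The mitochondrial genes were split. At hsp-60, the mitochondrial chaperonin, the summit at III:1619101 had a signal of 25.3 in replicate 1 (rank 63), 21.9 in replicate 2 (rank 108) and 47.8 in the pooled list (rank 65). It lay 641 bp upstream of the outermost hsp-60 start. On the other strand, and closer at 172 bp, was the start of Y22D7AL.10, which RefSeq names as the mitochondrial 10 kDa heat shock protein; in other species that protein caps the HSP60 chamber. The starts of these genes point away from each other across 812 bp, and the summit was in between, upstream of both. A peak in this place cannot be given to either gene from its position. In contrast, hsp-6, the mitochondrial HSP70, had 0 pooled regions in its window and 0 in replicate 2. The 4 regions of replicate 1 there had signals of 5.1 to 7.24, and the best ranked 11711.

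A stronger region lay just past the other end of hsp-6 and outside the rule's window. Its pooled summit, V:4823789, was 335 bp beyond the end of the gene and 2971 bp from the start, with a signal of 24.9 at rank 473. In replicate 2 the signal was 15.4 (rank 641), and in replicate 1 a region 149 bp from the pooled summit had 12.95 (rank 943). The nearest start there, 366 bp away, was that of adss-1. The region lay beyond the window and was not counted for hsp-6. Among regions outside the gene bodies, those closest to the 2 kb limit were at 1937 bp, a replicate 2 region of hsp-3 with a signal of 6.28, and at 2058 bp, a replicate 1 region of the same gene with 9.23. No peak of the 150 was gained or lost by the 9 genes between windows of 1 kb and 5 kb.

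The ER genes hsp-3 and hsp-4 both encode BiP, the HSP70 of the ER, and their proteins of 661 and 657 residues were 85% identical. At hsp-3 the best region had a signal of 16.6 in replicate 1 (rank 252), 12.5 in replicate 2 (rank 2194) and 29.9 in the pooled list (rank 222). The replicate summits were 19 bp apart, and the pooled summit was 189 bp upstream of the outermost of 3 annotated starts, in intergenic sequence, with C15H9.5 starting 987 bp away. The lowest peak on the IDR list had a signal of 33.49, and the first region below it 33.45. The hsp-3 region was thus below the threshold, and it ranked far lower in replicate 2 than in replicate 1. At hsp-4, the stress-induced BiP gene, the pooled list had 0 regions. Replicate 1 had a region of 9.08 (rank 5271) inside the gene and one of 6.43 (rank 16296) 19 bp upstream of a start, and replicate 2 had one of 7.16 (rank 19002) outside the gene.

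The heat shock factor gene hsf-1 (I:11953507-11963085) had no region near a start. Its pooled regions were deep inside the gene, 7246 and 7908 bp from the nearest start, with signals of 15.4 (rank 5812) and 13.8 (rank 9111). The best of replicate 1 had a signal of 6.39 (rank 16559) and the best of replicate 2 had 7.7 (rank 15759). Such a listed region is common: 7 of the 9 genes and 77.8% of all protein-coding genes had at least 1 pooled region in the window, and the median rank of the best was 9555 over those genes. The lists of 30000 regions hold background as well as peaks. A gene with no region is one with nothing listed, and the lowest listed signals were 4.79 in replicate 1, 5.8 in replicate 2 and 9.1 in the pooled list.

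**Figure D1:**
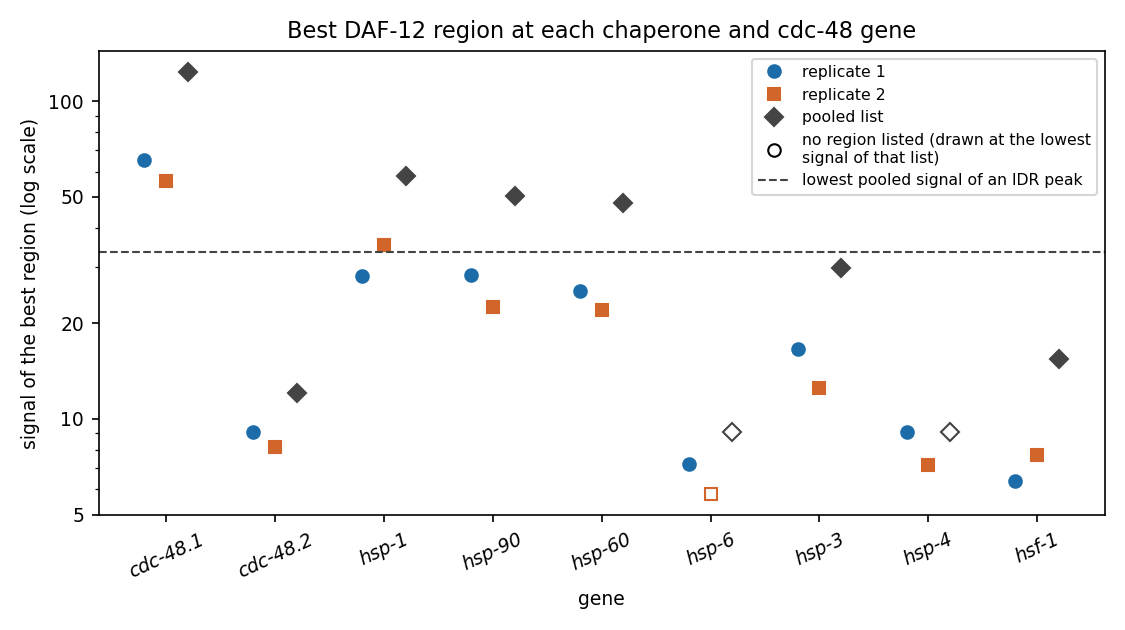
Signal of the best region inside each gene or within 2 kb of a start, on a log scale, for replicate 1 (circles), replicate 2 (squares) and the pooled list (diamonds). Open symbols mark genes with no listed region, drawn at the lowest signal of that list, and the dashed line is the lowest pooled signal of an IDR peak (33.5); cdc-48.1, hsp-1, hsp-90 and hsp-60 have pooled signals of 47.8 to 123.6 above it, and hsp-3 lies under it at 29.9.

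**Figure D2:**
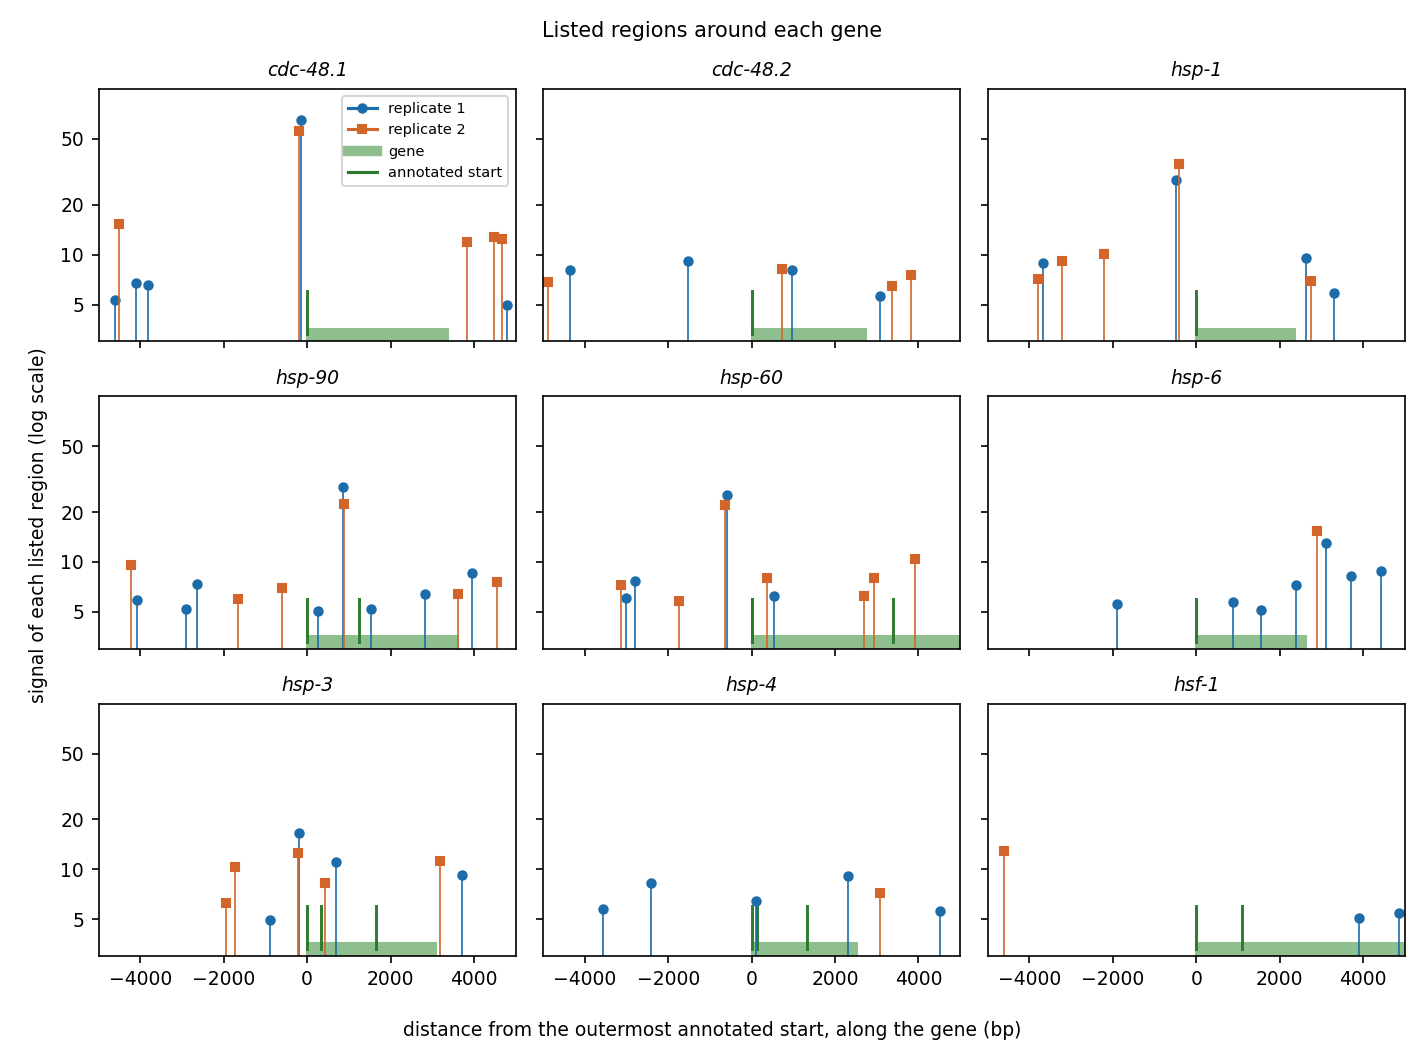
Every listed region within 5 kb of the outermost annotated start of each gene, plotted by distance along the gene (bp) and signal (log scale), with replicate 1 as circles and replicate 2 as squares. Green bars are the genes and green ticks their starts; at cdc-48.1, hsp-1, hsp-90, hsp-60 and hsp-3 the tallest regions of both replicates fall together within 1 kb of a start, and at hsp-6 they lie past the far end of the gene.

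The spread between the 2 replicates is the only measure of error here. Of the 9 genes, 4 had a region in the top 150 of both replicates with summits within 100 bp, and these were the 4 with an IDR peak. Of all protein-coding genes, 0.365% had such regions. The 9 genes were chosen with this signal known, so nothing is read from the difference. The log2 ratio of replicate 1 to replicate 2 was 0.22 at cdc-48.1, -0.32 at hsp-1, 0.34 at hsp-90, 0.21 at hsp-60 and 0.41 at hsp-3. Each lay within the SD of 0.68 over the 142 IDR peaks that had a matched region in each replicate, and the largest difference, 1.33-fold, was at hsp-3. The hsp-3 region is not one of those peaks, and it ranked 252 in replicate 1 and 2194 in replicate 2. The pooled signals of hsp-90 and hsp-60, 50.1 and 47.8, differed by less than the replicates did at either gene. The order of hsp-90 against hsp-1 was not the same in both replicates: hsp-90 had 28.5 and hsp-1 had 28.2 in replicate 1, while in replicate 2 hsp-90 had 22.5 and hsp-1 had 35.3. All 4 pooled signals, 47.8 to 123.6, were above the median of the 150 IDR peaks, 43.02. The place of cdc-48.1 above the other 8 genes held in both replicates.

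For each of the 4 peaks, the other IDR peak with the most similar log2 signals in the 2 replicates was found. For cdc-48.1 it was the peak of rank 4, 286 bp upstream of the ribosomal protein gene rpl-3, at a log2 distance of 0.15, with signals of 69.3 in replicate 1 and 61.2 in replicate 2. For the other 3 genes the most similar peaks had no coding start within 2 kb. They were the peak of rank 39 for hsp-1 (nearest coding gene xol-1, 4913 bp away), that of rank 55 for hsp-90 (nhr-88, 2573 bp) and that of rank 59 for hsp-60 (F45D3.2, 3326 bp). With only 2 samples this likeness is one of height alone.

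**Figure D3:**
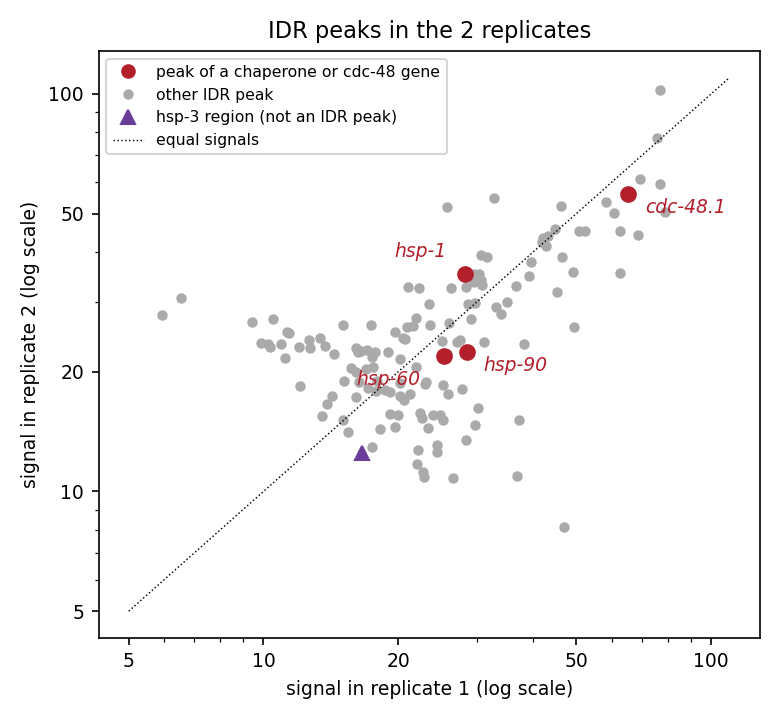
Signal in replicate 1 (x axis) and replicate 2 (y axis), both on log scales, of the 142 IDR peaks matched within 100 bp in each replicate; the 4 peaks of chaperone and cdc-48 genes are in red, the others in grey, and the hsp-3 region, which is not an IDR peak, is a triangle. The red points lie close to the dotted line of equal signals, with cdc-48.1 among the strongest (65.3 and 56.1) and the others between 21.9 and 35.3.

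What the 4 summits share in sequence was limited. A match was counted within 50 or 100 bp only where all its bases lay inside that window. Neither AGTGTG nor AGTGCA was within 50 bp of any of the 4 IDR summits, and 12.7% of all 150 IDR windows of 101 bases held each. Of all 30000 pooled windows, 3.4% held AGTGTG and 3.66% AGTGCA. Within 100 bp, AGTGTG was at hsp-60 only, 87 bp from the summit (bases 188 to 193 of the sequence shown). It was within 100 bp of 18.7% of all IDR summits and of 7.41% of all pooled summits. At cdc-48.1 the shorter pentamer AGTGT, looked up after the sequence was seen, occurred at 2 places on the other strand, 16 and 3 bp before the summit. It was within 50 bp of 30% of all IDR summits and of 14.8% of all pooled summits.

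The GA repeat GAGAG was within 50 bp of 46.7% of all IDR summits and of 13.2% of pooled summits. Among the 4 peaks it was at hsp-1 only, as 3 overlapping matches on the other strand that began 21, 23 and 25 bp after the summit.

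Heat shock patterns were found near all 4 summits, but at the summit only at hsp-90. GAANNTTC and TTCNNGAA are each their own reverse complement and each 2 units of a heat shock element. Among the 4 peaks, a match to either lay wholly within 50 bp only at hsp-90, where it ended on the summit base itself. Such a match was within 50 bp of 3.33% of the 150 IDR summits, these 4 included, and of 13.2% of all pooled summits. At hsp-1 and hsp-60 the nearest matches ran past that limit. Within 100 bp all 4 had a match: at cdc-48.1 67 bp, at hsp-1 44 bp, at hsp-90 also 56 bp, and at hsp-60 44, 49 and 80 bp from the summit to the nearest base. The same held for 12.7% of the 150 IDR windows of 201 bases, these 4 included, and for 24.5% of all pooled windows. At hsp-60 a pair of the matches overlap, making 3 alternating GAA and TTC units (bases 45 to 57 of the sequence shown). This triple pattern, chosen after the sequence was seen, was in 2.0% of IDR windows and 1.31% of pooled windows of 201 bases.

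The XBP-1 core TGACGTG was not within 100 bp of any of the 4 summits, and 3.33% of IDR windows and 1.52% of pooled windows of 201 bases held it. GC content within 50 bp was 42.6% at cdc-48.1, 39.6% at hsp-1, 46.5% at hsp-90 and 51.5% at hsp-60, against a median of 47.5% over the IDR windows and 35.4% over the nuclear genome. A match describes these letters and is no measure of binding by HSF-1 or XBP-1.

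The wider protein folding and degradation machinery was looked up in 11 lists with 147 matched genes, none of them a member. An IDR peak was found at 4 (2.72%, against 0.881% of all protein-coding genes), and one of the 300 highest regions at 10 (6.8%, against 1.72%). The median rank of the best region over the 117 genes with one was 7761, against 9555 over all genes with one. The lists were written with other results of these data known, and no test of them was made.

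The 4 list genes with an IDR peak were xbp-1, cct-1, dnj-9 and dnj-20. At xbp-1, the ER stress factor itself, the peak at III:4195325 had signals of 21.6 in replicate 1 (rank 103), 26.1 in replicate 2 (rank 60) and 43.4 in the pooled list (rank 75). It was not at the promoter: its summit was in the 3' UTR, 1504 bp downstream of a start. At cct-1, a subunit of the cytosolic chaperonin CCT, the peak at II:8185229 had 14.4 in replicate 1 (rank 534), 22.1 in replicate 2 (rank 102) and 38.5 pooled. It was 214 bp upstream of cct-1 and 206 bp upstream of mig-5, which is read in the other direction.

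At dnj-9, one of the DnaJ proteins that assist HSP70, the peak at II:4851805 lay 251 bp upstream, with 9.9 in replicate 1 (rank 3618) and 23.6 in replicate 2 (rank 78). At dnj-20, another DnaJ gene, the peak at II:9617900 had 19.5 in replicate 2 (rank 173) and no region of replicate 1 within 100 bp. It was in the 3' UTR of dnj-20 and nearer to hal-3, whose start was 775 bp away. Of these 4, xbp-1 alone was among the 150 highest of both replicates.

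Just below the threshold were 6 further list genes. The first region outside the IDR list, rank 151, lay 92 bp upstream of pfd-6, a prefoldin subunit, with a signal of 33.45, against 33.49 for the last peak inside. Its signal was 10.99 in replicate 1 (rank 2146) and 21.4 in replicate 2 (rank 116). The CDC-48 cofactor gene ufd-3 had rank 172, 148 bp upstream (9.64 in replicate 1 and 20.7 in replicate 2), and ubxn-3, another cofactor, rank 183, at 1283 bp and nearer to F48A11.4 (18.1 and 17.9 in replicates 1 and 2). The chaperonin subunit gene cct-8 had rank 177, 488 bp upstream and nearer to Y55F3AR.2 (16.08 in replicate 1 and 17.7 in replicate 2). The DnaJ gene dnj-7 had rank 246, 560 bp upstream, with no region of replicate 1 within 100 bp, and the ER stress factor gene atf-6 had rank 272, 211 bp upstream, with 20.8 in replicate 1 and 5.83 in replicate 2. In this group ubxn-3 and cct-8 had like signals in the replicates, pfd-6 and ufd-3 were higher in replicate 2, and atf-6 was higher in replicate 1.

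The other lists had 0 genes at either height: 7 genes listed with the HSP70 family, 14 small heat shock proteins, 11 HSP90 co-chaperones and other HSP90 proteins, 8 genes of the mitochondrial unfolded protein response, 3 regulators of HSF-1 and 30 proteasome genes. The best region of each of these lists ranked 571 at hsp-12.3 among the small heat shock proteins, 832 at pbs-1 in the proteasome and 911 at ubl-5 in the mitochondrial response. It ranked 2376 at ahsa-1 among the HSP90 genes, 3929 at stc-1 in the HSP70 family and 11525 at ddl-1 among the HSF-1 regulators.

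**Figure D4:**
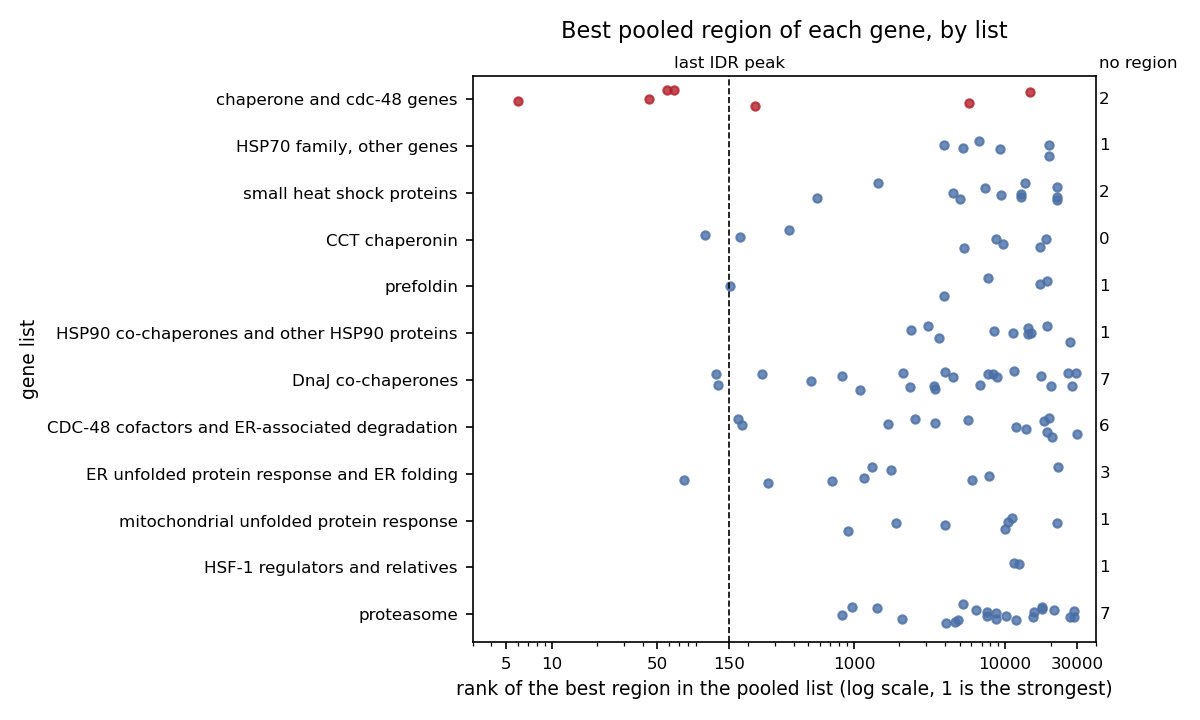
Rank of the best pooled region of each gene (x axis, log scale, 1 is the strongest) by gene list, with 1 point per gene and the number of genes with no pooled region at the right. Red points are the chaperone and cdc-48 genes, of which 7 of 9 have a pooled region, and the dashed line is the last IDR peak, at rank 150; 4 red points and 4 of the 147 list genes lie to its left.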

How the data were processed

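Regions from ChIP-seq of eGFP-DAF-12 in 2 samples of 1 group were used. The authors derived every list from alignments and a control, per the deposited description files, separately for each replicate and for the replicates pooled. No source used here names the caller, the aligner or the IDR cut-off. The signal value of each region is the authors' deposited number on an unstated scale, used here to rank and describe regions within a list and to compare replicates as a log2 ratio. The −log10 q-value deposited by the authors was not used for ranks, since 55 pooled regions shared its highest value of 2.04. The lists hold no counts: depth is unknown, and counting error cannot be given. The 4 ce10 lists were not used.

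Summits (column 2 + column 10 + 1) of the ce11 lists were set against the Ensembl release 115 annotation and RefSeq genome of WBcel235, the assembly that ce11 names, in Python 3.11.15 with pandas 2.3.3 and numpy 2.4.6. A gene had a region if a summit was inside it or within 2 kb of a start, and replicates were matched within 100 bp. Symbols followed RefSeq. Of 151 list names, 4 were not matched to a protein-coding gene (dnj-6, hsf-2, rpn-4 and rpn-6), and F11F1.1, listed with the HSP70 family, is named by RefSeq as another kind of protein. Proteins were translated from RefSeq coding exons, in place of the protein table first planned, and aligned globally with Biopython 1.88 (BLOSUM62, gap penalties 11 and 1). The sequence at the hsp-3 region and the patterns in promoters are not reported here. Window assignment was tested on simulated data.

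The members and lists were chosen with earlier results of these data known. Named were the 9 genes, every gene with a start within 2 kb of their IDR summits, list genes with an IDR peak, and the gene nearest to the most similar peak; the genes at hsp-3, adss-1, C15H9.5 and the list genes below the IDR threshold were picked with their values in view. The alternatives tried were other windows, list lengths, overlaps and each replicate alone. The replicates are labelled biological, and the spread between them is that of 2 samples.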

Additional observations from a re-analysis of the deposited data

How the results depend on the processing

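The count of the 9 genes with an IDR peak was 4. It ran from 3 to 4 over the other windows, the 75 strongest peaks and peak intervals in place of summits. The lower value came with starts within 500 bp, which leaves out hsp-60. Either replicate alone, counted by its own highest regions because the IDR list is pooled, also gave 4, which is not an IDR count. Counting a peak only for the nearest coding start, a choice made after seeing the data, left 2, cdc-48.1 and hsp-1, because C47E8.4 and Y22D7AL.10 start nearer to the other peaks. The same alternative left 2 of the 4 list genes, xbp-1 and dnj-9, and the 75 strongest peaks left 1, xbp-1. Starts within 5 kb gave 6 list genes with an IDR peak, and starts within 500 bp or 1 kb gave 4. The highest regions of either replicate alone, again not IDR peaks, gave 3 to 5. Among the 75 highest regions of both replicates, 2 of the 9 genes had one rather than 4, cdc-48.1 and hsp-1. Among the 150 highest, 3 had one when the replicate summits had to lie within 50 bp. Over the 4 peaks and 6 patterns, 2 pairings of a peak and a pattern had a match within 50 bp, 8 within 100 bp, and 2 to 4 with the summit of either replicate alone. Of 35 best ranks recomputed for the 7 genes with a pooled region, 26 were counted as the same and 9 as moved. For scale, hsp-1 going from rank 44 to 28 counted as the same, and hsp-60 going from 65 to 108 as moved. These are changes of rank, which the spread of signal between replicates does not measure. Among those that moved was hsp-3, at rank 2194 in replicate 2 alone. No paired analysis was possible because there is 1 group. Depth is unknown and limits what an absent region means.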
